A study of Saccharomyces cerevisiae with 24 samples.

Results

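The RNA levels of 10 genes that build and remodel the glucan of the yeast cell wall were followed as cells grew from about 40 to 75 fL. The genes were taken by systematic name from the 7032 features of the count and TPM tables, and all 10 were among the 6402 features that passed the filter on low counts. They are FKS1 (YLR342W) and GSC2 (YGR032W), which encode glucan synthases, the Gas family genes GAS1 (YMR307W), GAS3 (YMR215W) and GAS5 (YOL030W), the chitin-glucan transglycosylase genes CRH1 (YGR189C) and UTR2 (YEL040W), and the SUN family genes SIM1 (YIL123W), SUN4 (YNL066W) and UTH1 (YKR042W). Every library came from wild-type diploid yeast of the BY4743 strain, grown in rich medium (YPD) at 30 °C. Small G1 cells from centrifugal elutriation, which sorts cells by size, were cultured to a target size, stopped with cycloheximide and sodium azide, frozen, and pooled with others of like size, so each library was 1 pool of several cultures. The 24 libraries of rRNA-depleted total RNA carried mean sizes from 39.1 to 75.9 fL and formed 8 groups of 3 at 40, 45, 50, 55, 60, 65, 70 and 75 fL, with the library of 67.5 fL as replicate 1 of the 70 fL group. Larger cells had also been cultured longer and came from other cultures, and these cannot be told apart from size. No unsorted cells were compared.

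Beta-1,3-glucan is the main structural polymer of the budding yeast wall. Fks proteins at the plasma membrane make it under control of the GTPase Rho1, Gas enzymes then elongate and branch the chains outside the membrane, and Crh enzymes join them to chitin. SUN proteins are secreted or wall-bound proteins related to glucanases, and several wall genes are known to be switched on in late G1 through the SBF and MBF factors.

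Because those factors read short DNA words, the 500 bases before each coding start were searched on both strands for the SBF word CGCGAAA (SCB), the MBF word ACGCGT (MCB) and the Rlm1 site. The SCB word lay before 5 of the 10 genes, namely GAS1, GAS3, UTR2, SIM1 and SUN4, and before 349 of 6000 coding genes (5.82%). The MCB word lay before CRH1 and before 325 of the 6000 (5.42%). The Rlm1 site lay before GAS5 and before 109 of the 6000 (1.82%). None of these words lay before FKS1, GSC2 or UTH1, and no matches overlapped each other. Other spellings of the SBF and MBF words were not searched. The stretches around the SCB and MCB words are shown for each gene that holds one. Genes with and without these words were not compared as sets. They were read from the R64 genome along each gene's own strand, with the word in capitals (TTTCGCG is CGCGAAA read from the other strand).
GAS1, chrXIII:886636-886662, plus strand, 341 to 367 bases before the coding start: ttcgatatatTTTCGCGgctcgcgttt
GAS3, chrXIII:696614-696640, plus strand, 156 to 182 bases before: cgagaattttTTTCGCGcgctttctat
UTR2, chrV:77806-77832, plus strand, 221 to 247 bases before: taggaagaagCGCGAAAattcttgaaa
SIM1, chrIX:127915-127941, plus strand, 210 to 236 bases before: ttttttggcgTTTCGCGtcagtcaata
SUN4, chrXIV:501342-501368, plus strand, 147 to 173 bases before: ggatttacggCGCGAAAataagtttct
CRH1, chrVII:878596-878621, minus strand, 404 to 429 bases before: tgaattgatgACGCGTtttcccagcc
A match is a run of letters and not a measured binding site. The 5 genes with the SCB word differed in the size of their change from 40 to 75 fL. The log2 change was 5.41 for SIM1, 1.73 for GAS3, 1.51 for GAS1, 0.76 for SUN4 and 0.10 for UTR2. Over the 24 libraries the Pearson r of log2 CPM, given as a description, was 0.950 for GAS1 and SIM1. It was 0.907 for GAS1 and GAS3 and 0.884 for GAS3 and SIM1. Pairs of these genes that included SUN4 or UTR2 had r from 0.061 to 0.615.

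Libraries held 16103753 to 24408547 counts, and the 10 genes had between 271 and 93281 counts each per library. Levels are CPM unless TPM is named. CPM are counts scaled by the library total times its TMM factor, and these factors ran from 0.929 to 1.17. CPM therefore do not add to the same sum in every library and are not plain shares of it. TPM are shares of a library, and neither measure is an amount per cell. In such bulk samples fewer cells using a gene and less RNA of it per cell cannot be told apart. URA3 and LEU2, which BY4743 lacks, had 0 counts in 24 of 24 libraries. The 12 mating-type and haploid-specific genes checked stood at no more than 91.4 TPM in any library, and 10 of them fell from 40 to 75 fL, where 30.2% of all features fell. In each of the 40, 45, 50, 55 and 70 fL groups 1 library stood apart, by a mean distance to its group mates at least 1.4 times as large as theirs from each other. These 5 libraries apart were replicate 1 at 40 and 70 fL, replicate 2 at 50 and 55 fL and replicate 3 at 45 fL.

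Of the 10 genes, 9 differed among the 8 sizes (edgeR quasi-likelihood test, Benjamini-Hochberg adjusted p under 0.05), where 79.6% of all tested features did. From 40 to 75 fL 5 genes rose (GAS1, GAS3, CRH1, SIM1 and SUN4), against 31.0% of all features, and 2 fell (GSC2 and UTH1), against 30.2%. The median log2 change was 0.49 over the 10 genes and -0.01 over all features. The 3 successive stretches of growth differed. From 40 to 50 fL 3 genes rose (GAS1, CRH1 and SIM1; 32.8% of all features) and 2 fell (SUN4 and UTH1; 24.2%), with a median of -0.03 over the 10 genes and 0.05 over all. From 50 to 60 fL 4 rose (FKS1, GAS1, GAS3 and SUN4; 3.98% of all features) and 0 fell (6.11%), with medians of 0.79 and -0.09. From 60 to 75 fL SUN4 rose (2.00% of all features) and FKS1 fell (2.01%), with medians of 0.07 and 0.05. The 4 contrasts share libraries. The 50 to 60 fL calls were fragile, since the count of genes that rose was 0 without replicate 2 at 50 fL and also without replicate 2 or 3 at 60 fL, and leaving out each library in turn gave 0 to 6. This was not particular to the 10 genes. Over all features 255 rose, but 0 without replicate 2 at 50 fL and 3 and 2 without replicate 2 and 3 at 60 fL.

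**Figure D1:**
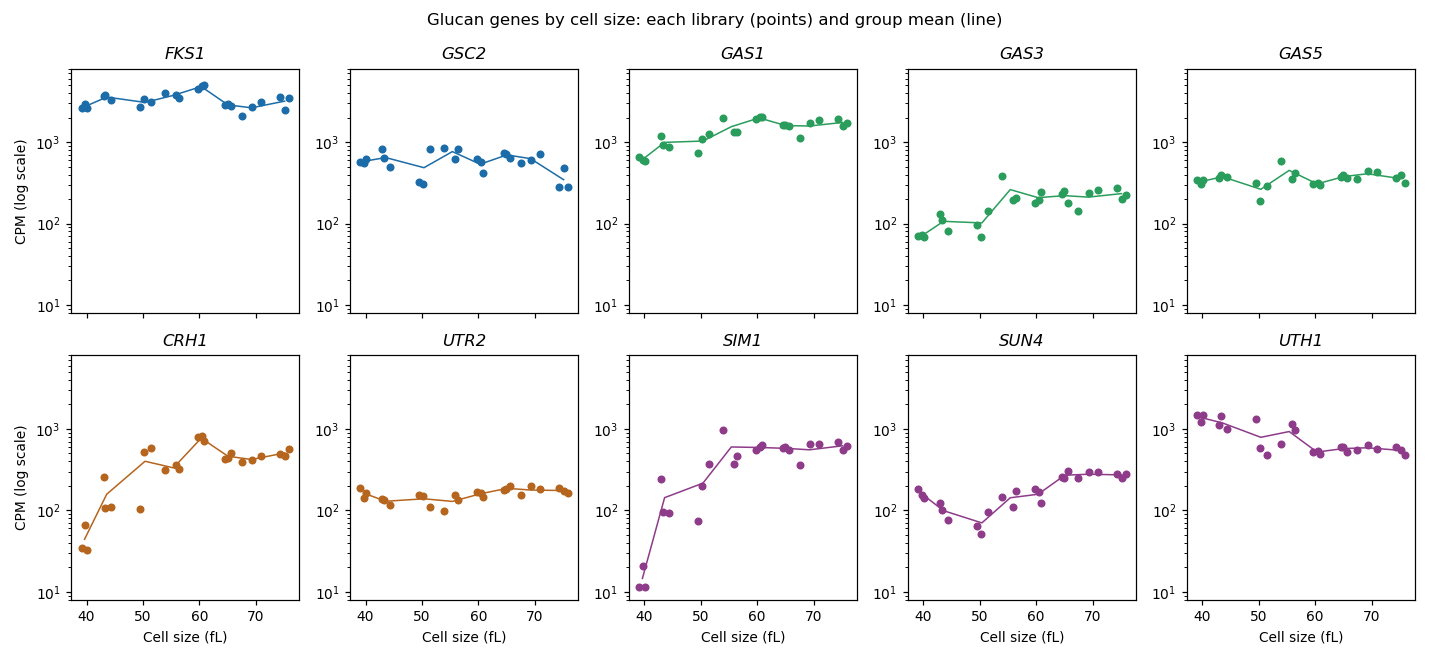
Level of each gene in every library (points, CPM on a log scale) against the mean cell size of the library in fL, with a line through the group means. SIM1 runs from 11.5 to 962 CPM and CRH1 from 32.6 to 815 CPM, UTH1 declines from up to 1483 CPM, and UTR2 stays between 97.2 and 199 CPM.

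In the glucan synthase pair FKS1 peaked at 60 fL and GSC2 was lower at 75 than at 40 fL. FKS1 encodes the catalytic subunit that makes most glucan in growing cells (chromosome XII, 809997 to 815627, plus strand). Its CPM was 2948, 2617 and 2589 in the 40 fL libraries, 3256, 3713 and 3751 at 45 fL, 3117, 2688 and 3410 at 50 fL and 3756, 4055 and 3444 at 55 fL. It was 5043, 4487 and 4892 at 60 fL, then 2832, 2973 and 2788 at 65 fL, 2117, 2697 and 3100 at 70 fL and 3566, 2494 and 3498 at 75 fL. The 3 libraries of 60 fL stood above all others, and the 40 and 75 fL libraries overlapped. FKS1 differed among the sizes (adjusted p = 0.000312, edgeR). It rose by 0.65 ± 0.14 on the log2 scale (SE) from 50 to 60 fL (adjusted p = 0.0217, edgeR) and fell by 0.59 ± 0.14 from 60 to 75 fL (adjusted p = 0.0189). The rise did not pass without 50 fL replicate 2 (adjusted p = 0.0825) or without any of the 60 fL replicates 1, 2 and 3 (0.0772, 0.0604 and 0.0728). Leaving out replicate 1 or 3 of 60 fL (0.0716 and 0.0820) or replicate 2 of 75 fL (0.121) ended the call of the fall. The difference between 75 and 40 fL, 0.23 ± 0.14 with adjusted p = 0.166, passed without 75 fL replicate 2 (0.38, adjusted p = 0.0264) and turned to -0.04 with library totals and -0.22 with TPM.

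GSC2, also called FKS2, encodes the alternative catalytic subunit known from starved, stressed and sporulating cells (chromosome VII, 548264 to 553951, plus strand). Its CPM was 549, 578 and 613 at 40 fL, 488, 812 and 638 at 45 fL, 827, 322 and 306 at 50 fL and 612, 854 and 828 at 55 fL. It was 413, 618 and 577 at 60 fL, 739, 713 and 637 at 65 fL, 561, 609 and 710 at 70 fL and 282, 476 and 278 at 75 fL. The highest group mean was 765 ± 133 CPM at 55 fL (SD, n = 3). The 75 fL libraries lay below those of 40 fL, while the 50 fL libraries were split between 1 high and 2 low. GSC2 was the member that did not pass over the 8 sizes (adjusted p = 0.0581, edgeR), although it passed without replicate 1 or 2 of 50 fL (0.000715 and 0.0496), replicate 1 of 45 fL (0.0461) or replicate 2 of 75 fL (0.0287). It also passed with library totals (0.0384), DESeq2 (0.0241), limma-voom (0.0242) and TPM (0.00619). From 40 to 75 fL it fell by 0.75 ± 0.30 (adjusted p = 0.0409). That call was lost without 40 fL replicate 1, 2 or 3 (adjusted p = 0.0597, 0.0746 and 0.0923) and without 75 fL replicate 1 or 3 (0.137 and 0.143). It was also lost with the 5 libraries apart left out (0.0718). Without 50 fL replicate 1 the 40 to 50 fL difference passed (-0.88, adjusted p = 0.00913) and so did the 50 to 60 fL difference (0.77, adjusted p = 0.0447).

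Within each library the ratio of 2 genes does not depend on how libraries are scaled. FKS1 stood 4.76 ± 0.603 times above GSC2 in TPM at 40 fL (SD, n = 3), 9.41 ± 2.61 times at 60 fL, 4.17 ± 0.278 times at 65 fL and 10.3 ± 4.30 times at 75 fL. The log2 ratio at 70 and 75 fL ran from 1.92 to 3.64 and at 40 and 45 fL from 2.08 to 2.74, a mean difference of 0.28 that did not pass (two-sided exact permutation test of 6 against 6 libraries, adjusted p = 0.435 over 8 ratios). FKS1 made up 82.5% ± 1.76 of the pair's TPM at 40 fL and 89.8% ± 4.98 at 75 fL. Across the 24 libraries log2 CPM of the pair had a Pearson r of -0.02, given as a description over libraries that share the TMM scaling. The 2 genes share 27 of their 30-base words (0.482% of those of FKS1), and only reads from those stretches could come from either.

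Of the Gas genes 2 rose from 40 to 75 fL, and GAS5 did not pass. GAS1 encodes the main glucanosyltransferase of vegetative walls, a protein with a glycolipid anchor (chromosome XIII, 887003 to 888682, plus strand). Its CPM was 595, 656 and 581 at 40 fL, 873, 1179 and 925 at 45 fL, 1252, 743 and 1096 at 50 fL and 1335, 1973 and 1331 at 55 fL. It was 2025, 1903 and 2025 at 60 fL, 1619, 1607 and 1556 at 65 fL, 1124, 1739 and 1869 at 70 fL and 1906, 1596 and 1727 at 75 fL. The 40 fL libraries were the lowest of all, and no library of 60, 65 or 75 fL was under 1556 CPM. GAS1 rose 2.85-fold from 40 to 75 fL, by 1.51 ± 0.20 on the log2 scale (adjusted p = 6.23e-06, edgeR). The stretches were 0.75 ± 0.20 from 40 to 50 fL (adjusted p = 0.0038) and 0.95 ± 0.20 from 50 to 60 fL (adjusted p = 0.0217), followed by a difference of -0.19 ± 0.19 from 60 to 75 fL that did not pass (adjusted p = 0.664). The first was 0.34 with TPM (adjusted p = 0.0804). The second did not pass without 50 fL replicate 2 (0.0738) or without 60 fL replicate 1, 2 or 3 (0.0657, 0.0604 and 0.0728).

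GAS3 encodes a less studied protein of the same family (chromosome XIII, 696796 to 698370, plus strand). Its CPM was 72.6, 69.4 and 68.3 at 40 fL, 80.8, 130 and 109 at 45 fL, 141, 96.6 and 67.6 at 50 fL and 197, 380 and 207 at 55 fL. It was 246, 181 and 197 at 60 fL, 233, 248 and 179 at 65 fL, 144, 234 and 255 at 70 fL and 276, 198 and 226 at 75 fL. No library of 55 fL and above was under 144 CPM, and no smaller one exceeded 141 CPM. The rise from 40 to 75 fL was 3.33-fold, 1.73 ± 0.29 on the log2 scale (adjusted p = 6.24e-05, edgeR). From 50 to 60 fL it was 1.03 ± 0.28 (adjusted p = 0.0328), a call lost without 50 fL replicate 2 or 3 (0.103 and 0.0805) or 60 fL replicate 1, 2 or 3 (0.117, 0.0735 and 0.0842). The 40 to 50 fL difference of 0.54 ± 0.28 did not pass (adjusted p = 0.107), except without 50 fL replicate 3 (0.76, 0.0403).

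GAS5 encodes a glucanosyltransferase with the same activity as Gas1 (chromosome XV, 268187 to 269641, plus strand). Its group means ran from 263.5 ± 64.4 CPM at 50 fL to 450 ± 115 CPM at 55 fL (SD, n = 3), and 55 fL replicate 2 held the highest value, 578 CPM. It differed among the sizes (adjusted p = 0.00888, edgeR). From 40 fL (303, 338 and 338 CPM) to 75 fL (364, 392 and 313 CPM) the difference was 0.13 ± 0.16 (adjusted p = 0.514), with overlapping libraries, and turned to -0.15 with library totals and -0.31 with TPM. The 40 to 50 fL difference of -0.31 ± 0.16 (adjusted p = 0.118) passed without 50 fL replicate 2 (-0.45, adjusted p = 0.0311) and with the 5 libraries apart left out (-0.50, adjusted p = 0.00436). It also passed with library totals (-0.55) and TPM (-0.72).

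The balance within the Gas trio shifted. GAS1 held 57.5% ± 1.58 of the summed TPM of the 3 genes at 40 fL, 77.5% ± 0.573 at 60 fL and 72.5% ± 1.76 at 75 fL (SD, n = 3). GAS5 went from 35.5% ± 1.67 to 13.9% ± 0.71 and 17.2% ± 2.47, and GAS3 from 7.05% ± 0.488 to 8.64% ± 1.16 and 10.3% ± 0.942. Between the 6 libraries of 70 and 75 fL and the 6 of 40 and 45 fL, the log2 TPM ratio of GAS1 to GAS5 was higher by 0.96 (adjusted p = 0.00495) and that of GAS3 to GAS5 by 1.21 (adjusted p = 0.00346, two-sided exact permutation tests). GAS3 gained on GAS1, whose ratio to it was lower by 0.26 in the larger cells (2.69 to 2.91 against 2.92 to 3.32, adjusted p = 0.00346, two-sided exact permutation test). An unadjusted p of 0.00216 is the smallest that 6 libraries against 6 can give.

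**Figure D2:**
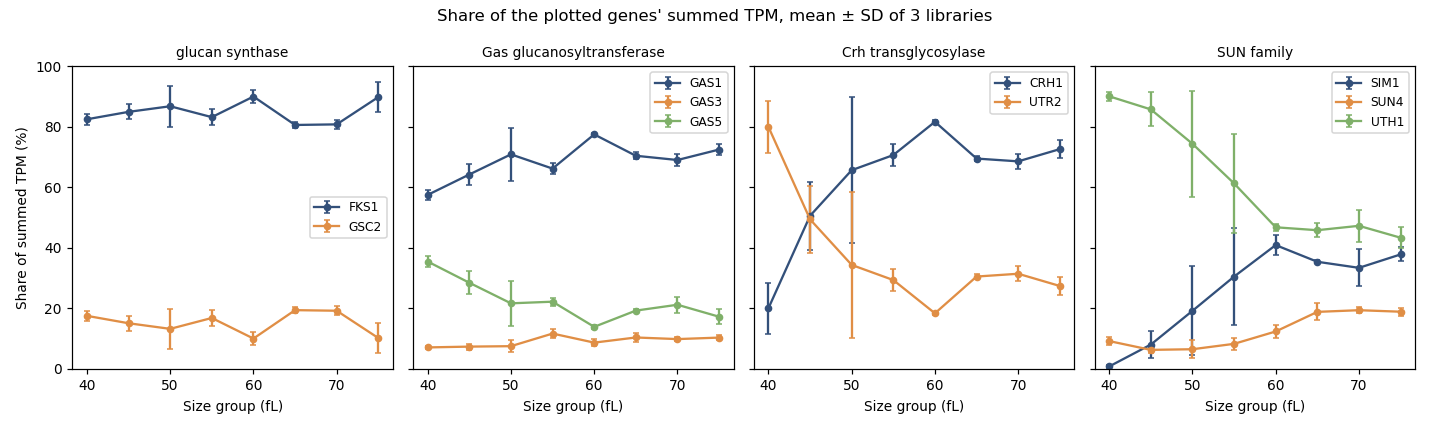
Share of the summed TPM of the plotted genes held by each gene (percent, mean with SD of 3 libraries) against size group in fL, for the synthase pair, the Gas trio, the Crh pair and the SUN trio. UTH1 goes from 90.1% to 43.3% of its trio while SIM1 goes from 0.753% to 37.8%, and CRH1 goes from 20.0% to 72.6% of its pair.

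In the Crh pair CRH1 rose steeply from 40 to 75 fL, and UTR2 did not pass. CRH1 encodes a transglycosylase that links chitin to glucan (chromosome VII, 876669 to 878192, minus strand). Its CPM was 65.5, 34.5 and 32.6 at 40 fL, 109, 259 and 106 at 45 fL, 580, 104 and 520 at 50 fL and 363, 314 and 323 at 55 fL. It was 707, 794 and 815 at 60 fL, 433, 445 and 510 at 65 fL, 389, 410 and 466 at 70 fL and 493, 466 and 564 at 75 fL. The 40 fL libraries were the lowest and the 60 fL libraries the highest of all, with 50 fL replicate 2 far under its group. CRH1 rose 9.08-fold from 40 to 50 fL, by 3.18 ± 0.46 on the log2 scale (adjusted p = 5.12e-05, edgeR), and stood 11.5-fold higher at 75 than at 40 fL (3.52 ± 0.47, adjusted p = 7.51e-06). The later differences, 0.94 ± 0.43 from 50 to 60 fL and -0.60 ± 0.43 from 60 to 75 fL, did not pass (adjusted p = 0.144 and 0.506, edgeR), although the 60 fL libraries overlapped neither group.

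UTR2, also called CRH2, encodes the other vegetative chitin-glucan transglycosylase (chromosome V, 78053 to 79456, plus strand). Its CPM was 142, 187 and 161 at 40 fL, 155, 97.2 and 134 at 55 fL and 189, 173 and 164 at 75 fL. Over all sizes the group means stayed between 129 ± 29.5 CPM at 55 fL and 187 ± 10.3 CPM at 65 fL (SD, n = 3), a range of 1.45-fold, which passed over the 8 sizes (adjusted p = 0.0165, edgeR). The 75 and 40 fL libraries overlapped, with a difference of 0.10 ± 0.15 (adjusted p = 0.591) that turned to -0.17 with library totals and -0.33 with TPM. The 40 to 50 fL difference of -0.24 ± 0.15 (adjusted p = 0.200) passed as a fall with library totals (-0.48), with TPM (-0.62) and with the 5 libraries apart left out (-0.41, adjusted p = 0.0120).

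The ratio of the 2 Crh genes turned over. CRH1 stood at 0.260 ± 0.143 times UTR2 in TPM at 40 fL (SD, n = 3), 1.10 ± 0.54 times at 45 fL, 4.46 ± 0.164 times at 60 fL and 2.69 ± 0.428 times at 75 fL. The log2 ratio was higher by 2.26 at 70 and 75 fL than at 40 and 45 fL (adjusted p = 0.00346, two-sided exact permutation test), and the 6 libraries of each side did not overlap. The summed TPM of the pair went from 179 ± 12.7 at 40 fL to 576 ± 56.2 at 60 fL and 417 ± 38.8 at 75 fL.

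The SUN genes took 3 different courses. SIM1, whose product is a wall protein of this family (chromosome IX, 128151 to 129581, plus strand), had the largest change of the 10 genes. Its CPM was 20.8, 11.5 and 11.5 at 40 fL, 92.5, 241 and 96.7 at 45 fL, 372, 74.5 and 202 at 50 fL and 376, 962 and 466 at 55 fL. It was 633, 546 and 599 at 60 fL, 590, 597 and 548 at 65 fL, 361, 651 and 653 at 70 fL and 689, 552 and 625 at 75 fL. All 40 fL libraries were below all others, and from 55 fL on no library was under 361 CPM. SIM1 rose 14.8-fold from 40 to 50 fL, by 3.88 ± 0.52 on the log2 scale (adjusted p = 2.95e-05, edgeR). Its 50 to 60 fL difference of 1.46 ± 0.47 had an adjusted p of 0.0525, and passed without 50 fL replicate 1 (2.10, adjusted p = 0.0162) and with the 5 libraries apart left out (1.09, adjusted p = 0.0267). It also passed with DESeq2 (adjusted p = 0.0130). From 60 to 75 fL the difference was 0.07 ± 0.46 (adjusted p = 0.959), and -0.01 without 75 fL replicate 1.

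SUN4 encodes a wall protein known for its part in the separation of mother and daughter cells (chromosome XIV, 501515 to 502777, plus strand). Its CPM was 156, 185 and 144 at 40 fL, 75.9, 122 and 99.8 at 45 fL, 95.0, 64.9 and 50.9 at 50 fL and 111, 146 and 172 at 55 fL. It was 124, 181 and 169 at 60 fL, 256, 249 and 306 at 65 fL, 247, 295 and 293 at 70 fL and 283, 253 and 283 at 75 fL. The level was lowest at 50 fL, and every library of 65 fL and above exceeded every smaller one. SUN4 fell by 1.20 ± 0.21 from 40 to 50 fL (adjusted p = 0.000255, edgeR) and rose by 1.17 ± 0.21 from 50 to 60 fL (adjusted p = 0.0173). The rise from 50 to 60 fL did not pass without 50 fL replicate 2 (0.0651) or 60 fL replicate 2 or 3 (0.0604 and 0.0614). From 60 to 75 fL it rose by 0.79 ± 0.21 (adjusted p = 0.0397). That last call did not survive the loss of any 1 of the 6 libraries compared. The adjusted p was then 0.167, 0.0688 and 0.107 without 60 fL replicate 1, 2 and 3, and 0.121, 0.0838 and 0.104 without 75 fL replicate 1, 2 and 3. The whole rise from 40 to 75 fL, 0.76 ± 0.21 (adjusted p = 0.00494), was 0.49 with library totals (adjusted p = 0.0548) and 0.33 with TPM (adjusted p = 0.192).

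UTH1 encodes the SUN protein known from studies of ageing and mitochondria (chromosome XI, 519527 to 520624, plus strand). Its CPM was 1211, 1469 and 1483 at 40 fL, 1008, 1122 and 1430 at 45 fL, 484, 1308 and 578 at 50 fL and 1167, 654 and 969 at 55 fL. It was 494, 524 and 544 at 60 fL, 599, 608 and 519 at 65 fL, 559, 630 and 573 at 70 fL and 602, 559 and 479 at 75 fL. No library of 60 fL and above exceeded 630 CPM and none of 40 or 45 fL was under 1008 CPM, while 50 fL replicate 2 and 55 fL replicates 1 and 3 were high among the sizes between. From 40 to 75 fL UTH1 fell by 1.34 ± 0.27 (adjusted p = 0.000399, edgeR). From 40 to 50 fL it fell by 0.81 ± 0.27 (adjusted p = 0.0151), which did not pass without 50 fL replicate 1 (0.0922) or 50 fL replicate 3 (0.0836). The 50 to 60 fL difference of -0.60 ± 0.27 (adjusted p = 0.135) passed without 50 fL replicate 1 (-0.86, adjusted p = 0.0375).

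UTH1 had the highest mean TPM of the SUN trio in each of the 8 size groups, though its libraries overlapped those of SIM1 at 55 and 75 fL. In 55 fL replicate 2 SIM1 stood at 607 TPM and UTH1 at 537 TPM. UTH1 held 90.1% ± 1.46 of the trio's TPM at 40 fL, SUN4 9.15% ± 1.23 and SIM1 0.753% ± 0.365 (SD, n = 3). At 75 fL UTH1 held 43.3% ± 3.38, SIM1 37.8% ± 2.34 and SUN4 18.9% ± 1.38. Between 70 and 75 fL and 40 and 45 fL the log2 ratio of SIM1 to UTH1 was higher by 4.86 and that of SUN4 to UTH1 by 2.30 (adjusted p = 0.00346 each), and that of SIM1 to SUN4 by 2.56 (adjusted p = 0.00495), all by two-sided exact permutation tests. The trio's summed TPM was 1728 ± 197 at 40 fL and 1044 ± 76.3 at 75 fL.

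**Figure D3:**
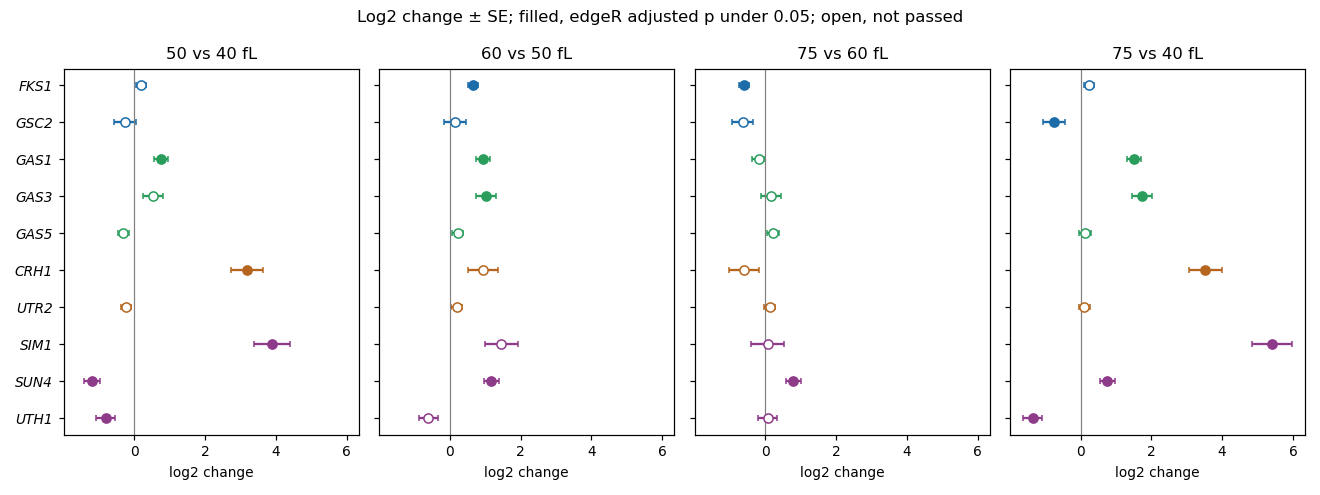
Log2 change of each gene with its SE in the stretches 40 to 50, 50 to 60 and 60 to 75 fL and over the whole range from 40 to 75 fL, filled where the edgeR adjusted p was under 0.05. SIM1 (5.41) and CRH1 (3.52) lie farthest to the right over the whole range, with most of it reached by 50 fL, and SUN4 goes from -1.20 to 1.17.

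Per length, the order of the 10 genes was rebuilt. At 40 fL UTH1 had 1558 ± 194 TPM, FKS1 594 ± 34.1, GAS1 448 ± 32.1 and GAS5 276 ± 21.4 (SD, n = 3), each above the next in all libraries. SUN4 (157 ± 21.2 TPM), UTR2 (144 ± 21.5) and GSC2 (126 ± 8.72) followed and overlapped, and GAS3 (54.8 ± 0.907), CRH1 (35.6 ± 14.3) and SIM1 (12.5 ± 4.403) came last. At 60 fL GAS1 led with 1096 ± 27.6 TPM, before FKS1 with 792 ± 30.9. CRH1 (471 ± 46.1 TPM) and UTH1 (440 ± 31.2) overlapped there, SIM1 stood at 384 ± 19.4 and GAS5 at 196 ± 9.03, and GAS3, SUN4, UTR2 and GSC2 lay between 87.8 ± 19.9 and 122 ± 16.6 with each overlapping its neighbour. At 75 fL GAS1 (944 ± 89.15 TPM) again stood above all others in every library. FKS1 (516 ± 106), UTH1 (452 ± 40.6), SIM1 (396 ± 46.5) and CRH1 (304 ± 40.1) each overlapped the next, and GSC2 was lowest with 55.04 ± 16.9.

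Timing genes of the cell cycle give these sizes a place in the cycle. The G1 cyclin gene CLN2 and the related cyclin gene PCL1 had their highest group mean at 60 fL (301 ± 24.7 and 289 ± 20.3 CPM, SD, n = 3). The histone H2A gene HTA1 was level from 55 to 75 fL, with group means between 438 ± 64.4 and 447 ± 70.2 CPM. The mitotic cyclin gene CLB2 and the septum chitin synthase gene CHS2 had their highest mean at 75 fL. EGT2, an early G1 gene of cell separation, stood at 747 ± 176, 757 ± 74.2 and 663 ± 65.0 CPM at 65, 70 and 75 fL. FKS1, GAS1 and CRH1 had their highest mean at 60 fL, as CLN2 and PCL1 did. SUN4 was level from 65 to 75 fL, with means of 270 ± 30.8, 278 ± 27.0 and 273 ± 17.7 CPM (SD, n = 3). The 50 fL libraries differed in these timing genes: CLN2 was at 205, 44.8 and 190 CPM, and in the same replicate order CRH1 was at 580, 104 and 520 CPM, SIM1 at 372, 74.5 and 202 CPM and UTH1 at 484, 1308 and 578 CPM. At 55 fL HTA1 was at 316, 646 and 357 CPM beside SIM1 at 376, 962 and 466 CPM. Other timing genes did not follow the same pattern: in the same order the 50 fL libraries held CLB2 at 56.8, 12.2 and 8.87 CPM, and at 55 fL CLN2 was at 130, 153 and 111 CPM beside CRH1 at 363, 314 and 323 CPM. The part of cell cycle stage in the differences between sizes was not tested.

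**Figure D4:**
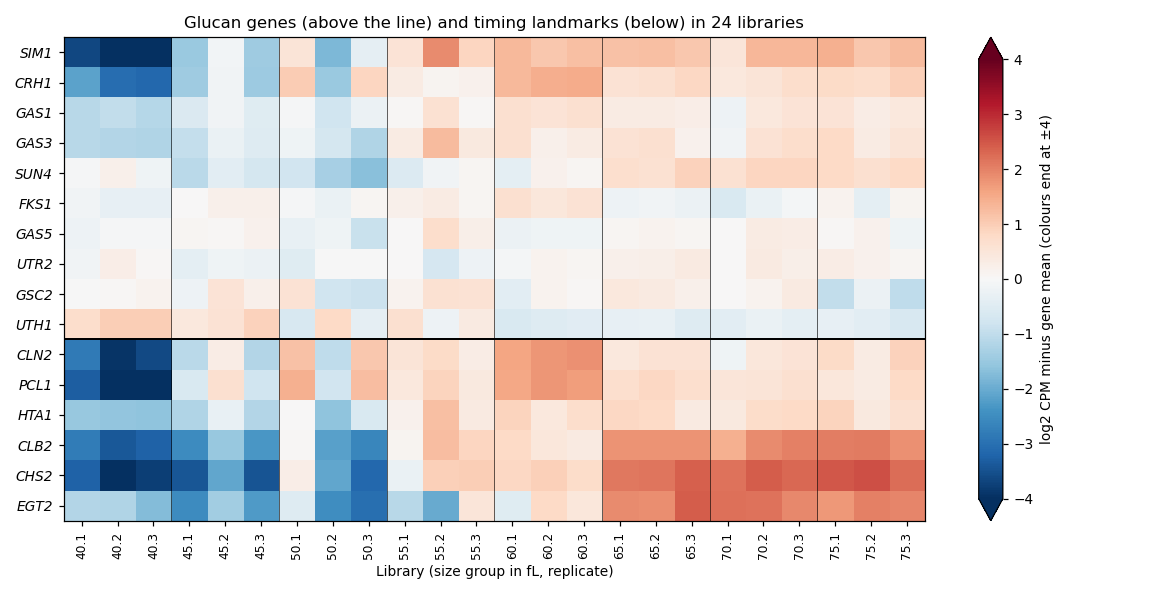
Log2 CPM minus the mean of each gene (colour, ending at 4 either way) for the 10 glucan genes above the line and 6 timing genes below it, in the 24 libraries ordered by size group and replicate. SIM1 and CRH1 are low in all 40 fL libraries, in 45 fL replicates 1 and 3 and in 50 fL replicate 2. CLN2 and PCL1 are low and UTH1 is high in the same libraries.

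The genes whose log2 CPM ran closest to each member over the 24 libraries were found among all tested features with a mean of at least 10 CPM. These Pearson r values are descriptions over libraries that share size groups, depth and scaling. SIM1 ran closest to the histone genes HHF2 (0.995) and HTA2 (0.994), of whose 30-base words 42.4% and 13.2% are repeated in the genome. CRH1 ran closest to GIC2 (0.993), which encodes a Cdc42 effector of bud emergence, and CAF120 (0.983). GAS1 ran closest to PSA1 (0.985), which encodes the enzyme that makes GDP-mannose, and ECM33 (0.981), a wall protein gene, and GAS3 to INP2 (0.982) and the forkhead factor gene FKH1 (0.977). SUN4 ran closest to AMN1 (0.941) and SCW11 (0.928), and UTH1 to EFM6 (0.980) and the ribosome biogenesis gene CGR1 (0.977). FKS1 ran closest to the mannosyltransferase gene MNN2 (0.934) and to its homolog FKS3 (0.889). Lower values were the highest for GAS5 (ALE1, 0.851, and YGK1, 0.850), UTR2 (SFH5, 0.824, and ARC1, 0.823) and GSC2 (MSI1, 0.646, and FET4, 0.578). Among the 10 genes r was 0.950 for GAS1 and SIM1, 0.936 for CRH1 and SIM1, 0.907 for GAS1 and GAS3 and -0.89 for CRH1 and UTH1.

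The other glucan enzyme genes of the list, 15 in number, all differed among the sizes (79.6% of all features did). From 40 to 75 fL 8 rose and 5 fell, against 31.0% and 30.2% of all features, with a median log2 change of 0.26, and the share that fell lies near that of all features. The 5 that fell were GAS2 (-1.93 ± 0.15), GAS4 (-1.56 ± 0.29), CRR1 (-0.87 ± 0.16) and SPR1 (-1.22 ± 0.14), known from the spore wall, and NCA3 (-3.01 ± 0.26), the fourth SUN family gene. NCA3 went from 515 ± 49.5 CPM at 40 fL to 64.1 ± 4.7 CPM at 75 fL (SD, n = 3, adjusted p = 2.98e-07, edgeR). Over this whole range UTH1 also fell, while SIM1 and SUN4 rose, but the stretches in which NCA3 and UTH1 passed differed. From 40 to 50 fL NCA3 changed by -0.20 ± 0.24 (adjusted p = 0.481, edgeR). UTH1 changed by -0.81 ± 0.27 there, a call lost without 50 fL replicate 1 or 3. From 50 to 60 fL both were lower without passing, NCA3 by -0.71 ± 0.24 and UTH1 by -0.60 ± 0.27 (adjusted p = 0.0617 and 0.135, edgeR). From 60 to 75 fL NCA3 changed by -2.10 ± 0.25 (adjusted p = 0.00011, edgeR) and UTH1 by 0.07 ± 0.27. The largest rise of the list was that of SCW10 (3.70 ± 0.48). Among the others that rose were the daughter-specific endoglucanase gene DSE4 (2.86 ± 0.48) and the glucanase-like genes SCW11 (1.95 ± 0.49) and SCW4 (1.21 ± 0.14). FKS3, the gene just before GAS1 on chromosome XIII, stood at 27.7 ± 3.73 CPM at 40 fL and 33.2 ± 5.04 at 75 fL. Its difference of 0.26 ± 0.13 did not pass (adjusted p = 0.0858), passed without 40 fL replicate 1 (0.36, adjusted p = 0.0332) or 75 fL replicate 2 (0.38, adjusted p = 0.0194), and turned to -0.01 with library totals and -0.15 with TPM.

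Of the 19 genes of glucan synthase regulation and the cell wall integrity pathway, which senses wall stress through Rho1, 15 differed among the sizes, where 79.6% of all features did. From 40 to 75 fL 6 rose and 7 fell, against 31.0% and 30.2% of all features, with a median of -0.06. These shares lie near those of all features, and the split depended on scaling: it was 3 and 11 with library totals and 1 and 13 with TPM. The sensor gene WSC2 rose by 3.09 ± 0.36, from 14.0 ± 2.63 to 119 ± 25.9 CPM, and BAG7, which encodes a GTPase-activating protein of Rho1, fell by 2.65 ± 0.33, from 25.3 ± 5.19 to 4.03 ± 0.43 CPM (SD, n = 3, adjusted p = 2.13e-06 and 3.94e-06, edgeR). LRG1, which encodes another such protein, rose by 0.62 ± 0.11 (0.18 with TPM, adjusted p = 0.129). BCK1, a kinase gene of the pathway, rose by 0.21 ± 0.08 (adjusted p = 0.0342), which turned to -0.06 with library totals and -0.22 with TPM. The BCK1 call was also lost without 40 fL replicate 1 or 3 (adjusted p = 0.0878 and 0.0885) or 75 fL replicate 1 or 3 (0.0993 and 0.144). RHO1 itself rose by 0.53 ± 0.09 (adjusted p = 0.00012), and by 0.09 with TPM (adjusted p = 0.344).

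All 13 genes of beta-1,6-glucan synthesis, the polymer that ties wall proteins to the glucan, differed among the sizes (79.6% of all features did). Of the 13, 4 rose and 5 fell from 40 to 75 fL, against 31.0% and 30.2% of all features, with a median of 0.01, so the share that rose lies near that of all features. With library totals 8 fell and with TPM 9 did. The 4 that rose were CWH41 (1.57 ± 0.23), GTB1 (1.15 ± 0.18) and ROT2 (0.76 ± 0.18), which encode glucosidases or their subunits that trim glycans in the endoplasmic reticulum, and KEG1 (0.97 ± 0.16). ROT2 was at 0.31 with TPM (adjusted p = 0.0933). Those that fell were KNH1 (-1.61 ± 0.23), SKN1 (-0.69 ± 0.14), BIG1 (-0.49 ± 0.09), CNE1 (-0.34 ± 0.09) and KRE9 (-0.30 ± 0.09).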

How the data were processed

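The authors deposited 2 tables of 7032 features and 24 libraries. One holds raw read counts, made by the authors with featureCounts of the Subread package on genome build R64, per the submitters' processing notes. The other holds TPM values that the authors deposited beside them, which sum to 999790.73 to 999869.91 per library and equal counts over a fixed length to 6.19e-05% where a feature has 100 counts or more. Of the aligner, strand and multi-mapping settings nothing is given in the sources used here. No annotated gene overlapped a member in R64.

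Libraries were grouped by the nearest multiple of 5 fL, with 67.5 fL in the upper group. Replicates are pools numbered in record order, and the numbers pair nothing. The quasi-likelihood F test of edgeR (4.0.16, under R 4.3.3) was run on counts in 1 fit of 24 libraries, with TMM factors, filterByExpr (6402 features), Benjamini-Hochberg adjustment over all of them, a threshold of 0.05 and a common biological coefficient of variation of 0.179. The fit was tested on simulated data. The SE is the absolute log2 change over the square root of F. Ratios of TPM were tested by two-sided exact permutation (SciPy 1.17.1), with adjustment over 8 ratios.

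The 10 genes and the lists were chosen with earlier results of these data known. Named beside the members are the 4 genes of each list with the smallest adjusted p over the 8 sizes, those in counts of 5 or fewer, 6 timing genes, and the 2 genes closest to each member. RHO1, FKS3, SCW10 and SCW11 were named in the list results after their values were seen. Promoters of 500 bases were read from the genome, a window chosen after the tests were fixed, and the result for 1 motif is not reported here. Alternatives were RLE factors, library totals, no filter, 1 CPM in 3 libraries, DESeq2 (1.42.0), limma-voom and limma (3.58.1) on log2 of TPM plus 1 or 0.1, 67.5 fL in the 65 fL group, and leaving out the 5 libraries apart or each library in turn. For the other lists these were added after the data were seen. Values with TPM use a pseudocount of 1.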

Additional observations from a re-analysis of the deposited data

How the results depend on the processing

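Scaling set the balance of calls over all features. From 40 to 75 fL 1985 features rose and 1934 fell, but 1221 and 2941 with library totals, 933 and 3524 with TPM plus 1, and 936 and 3501 with TPM plus 0.1, where the median of all log2 changes was -0.28, -0.42 and -0.44 against -0.01. From 40 to 50 fL the counts were 1219 and 2518, 886 and 3095, and 889 and 3067 in the same order. With library totals, TPM plus 1 and TPM plus 0.1 the 40 to 75 fL change turned for FKS1 (-0.043, -0.22, -0.22), GAS5 (-0.15, -0.31, -0.31), UTR2 (-0.17, -0.33, -0.33), BCK1 (-0.063, -0.22, -0.23) and FKS3 (-0.013, -0.15, -0.18), as did the 40 to 50 fL change of FKS1 (-0.074, -0.21, -0.21). Members that fell from 40 to 50 fL were then 4, 5 and 5, and 4 with the 5 libraries apart left out. Members that fell from 40 to 75 fL were 1 with no filter and 1 without the 5 libraries. Without them GSC2 (-0.043) and UTH1 (0.016) turned from 50 to 60 fL. SUN4 was not called from 60 to 75 fL, leaving 0 members that rose, with RLE factors, library totals, no filter and both TPM fits. Over all features, 50 to 60 fL rises numbered 620 with DESeq2 and 866 without the 5 libraries, and falls 210 with RLE factors, 209 with library totals, 168 with no filter, 176 and 162 with TPM, and 920 without the 5 libraries. From 60 to 75 fL rises numbered 606 without the 5 libraries, and falls 277 with DESeq2 and 814 without the 5. The causes were not tested. Leaving out each library in turn gave 927 to 1912 falls from 40 to 50 fL, 0 to 354 rises and 1 to 465 falls from 50 to 60 fL, and 44 to 106 rises and 36 to 91 falls from 60 to 75 fL where a library of the contrast was left out. For the members it gave 1 to 2 falls from 40 to 75 fL, 1 to 3 from 40 to 50 fL, 0 to 6 rises and 0 to 1 falls from 50 to 60 fL, and always 0 rises and 0 to 1 falls from 60 to 75 fL. The 50 to 60 fL difference of GSC2 then ran from -0.10 to 0.77 and was below 0 without 50 fL replicate 2 (-0.082) or 3, and those from 60 to 75 fL of SIM1 (-0.0096 to 0.15) and UTH1 (-0.0043 to 0.16) turned without 75 fL replicate 1. Taken over 3 libraries of 75 fL and 3 of 40 fL, where an exact permutation test cannot give a p under 0.1, the log2 ratio differences did not pass at -0.20 (GAS1 to GAS3), 1.38 (GAS1 to GAS5), 1.58 (GAS3 to GAS5), 3.45 (CRH1 to UTR2), 4.59 (SIM1 to SUN4), 6.69 (SIM1 to UTH1) and 2.11 (SUN4 to UTH1). The number of members called over the 8 sizes was 9 or 10 in every alternative. No paired analysis was possible because the labels give no replicate numbers shared between sizes. With 3 pools a size, the spread within a group limits what could be called.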
